A study of Drosophila melanogaster with 6 samples.

Results

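A set of 8 genes of renal transport, out of 17411 genes counted in each library, was followed across fly gut RNA libraries: salt, NaPi-T, Oatp58Da, Oatp58Db, Oatp58Dc, Uro, ZnT35C and Irk3. They are genes of the Malpighian tubule that were selected on measured values, since their levels and their difference between the groups in these same libraries were known when the set was drawn up. For that reason their levels and group differences are given here as a description, with no test of a member. Each symbol matched 1 gene identifier. All 8 passed the filter on low counts, with 70 to 9018 reads per gene and library.

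The series holds 6 Drosophila melanogaster libraries made from polyA-selected RNA. In 3 of them, labelled Mex-Gal4>9G8RNAi, the driver expresses an RNAi construct against the splicing factor 9G8 (called 9G8-RNAi here), and in the other 3, labelled Mex-Gal4>GFPdsRNA, a double-stranded RNA against GFP serves as the control (GFP-dsRNA). Both groups thus carry Mex-Gal4. The driver is used for its activity in midgut enterocytes. Replicates have the letters A, B and D, and per-library values below are given in that order. Age, sex, the way guts were dissected and the number of flies per library are not given in the labels, which say nothing of whether tubules were kept with the gut. The tissue of the 9G8-RNAi libraries is given as intestines and that of the controls as fat bodies, and the design text names a yolk driver.

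The Malpighian tubules are the fly's excretory organ and join the gut where midgut and hindgut meet, so that a dissected gut can keep tubule stumps. Their principal cells secrete cations driven by a proton pump, take up organic anions and other solutes from the blood, store zinc and break down uric acid, while the smaller stellate cells pass chloride and water. A transcript of such genes in a gut library can come from tubule tissue left on the gut or from gut cells that use the same gene. In bulk RNA, fewer cells of a type and less RNA per cell cannot be told apart.

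Total counts ranged from 26216430 to 66562756 per library. The transcript of 9G8, from the gene x16, measured 5.44 to 9.76 CPM (counts scaled to a common library total) in 9G8-RNAi and 7.92 to 13.9 in GFP-dsRNA libraries, a log2 difference of -0.53 ± 0.46 (SE; edgeR adjusted p = 0.92), so the targeted transcript gave no check of the labels. GFP-dsRNA replicate A stood apart in muscle genes and in some hindgut genes. There Mhc, the muscle myosin heavy chain, reached 1418 CPM against at most 40.3 CPM in any other library, and byn, the hindgut transcription factor brachyenteron, 74.1 against at most 1.39 CPM. Results are therefore also given without that library. Enterocyte markers summed to between 64541 and 198200 CPM in the 6 libraries, and the fat body gene Lsp2 was at 0.102 CPM or less in each. Of 9 fat body markers, 3 stayed under 1 CPM in every library, while others were read, such as the yolk protein gene Yp3 at 34.7 to 220.3 CPM and apolpp, the apolipophorin precursor, at 7.33 to 82.8 CPM.

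All 8 genes were read in every library, and their levels spanned a wide range. In CPM per kilobase of exon, a scale on which genes can be compared, Uro had the highest mean over the 6 libraries at 47.6, followed by salt at 41.4. NaPi-T and Irk3 followed at 15.2 and 15.1. Oatp58Da stood at 7.0, Oatp58Dc at 5.43, ZnT35C at 4.0 and Oatp58Db at 2.29. Neighbours in this order overlapped in their ranges across libraries, such as 17.7 to 98.4 for Uro and 11.8 to 72.9 for salt.

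The gene salt (salty dog, FBgn0039872, 3R from 31751825 to 31754705, minus strand, BDGP6) encodes a sodium-solute cotransporter of the SLC5 family that modulates the fly's response to salt stress. It measured 85.0, 154 and 135 CPM of total counts in 9G8-RNAi and 90.7, 24.9 and 35.2 CPM in GFP-dsRNA. GFP-dsRNA replicate A thus lay inside the 9G8-RNAi range, and the other 2 controls lay below every 9G8-RNAi library. TMM is a factor per library that corrects for differences in RNA make-up. After TMM scaling the 9G8-RNAi mean was 132 ± 43.6 and the control mean 44.0 ± 18.6 CPM (SD, n = 3 each). The log2 fold change was 1.59 ± 0.45 (SE). Of its 2114 exonic bases, 70 are shared with CG1910 on the other strand, and the strand setting of the counting is not given in the sources used here.

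NaPi-T (FBgn0016684, 2R from 14842720 to 14845874, minus strand), a member of the SLC17 family of sodium-dependent phosphate and anion cotransporters, followed salt closely. It measured 33.7, 65.1 and 71.0 CPM of total counts in 9G8-RNAi and 40.7, 14.4 and 17.8 CPM in GFP-dsRNA. Again replicate A of the controls reached into the 9G8-RNAi range. The ratio of salt to NaPi-T stayed between 1.73 and 2.53 in the 6 libraries, while each gene alone varied 6.18-fold and 4.94-fold. Scaled by TMM, NaPi-T measured 59.0 ± 18.8 against 21.7 ± 7.83 CPM (SD, n = 3 each), a log2 fold change of 1.44 ± 0.40 (SE).

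**Figure D1:**
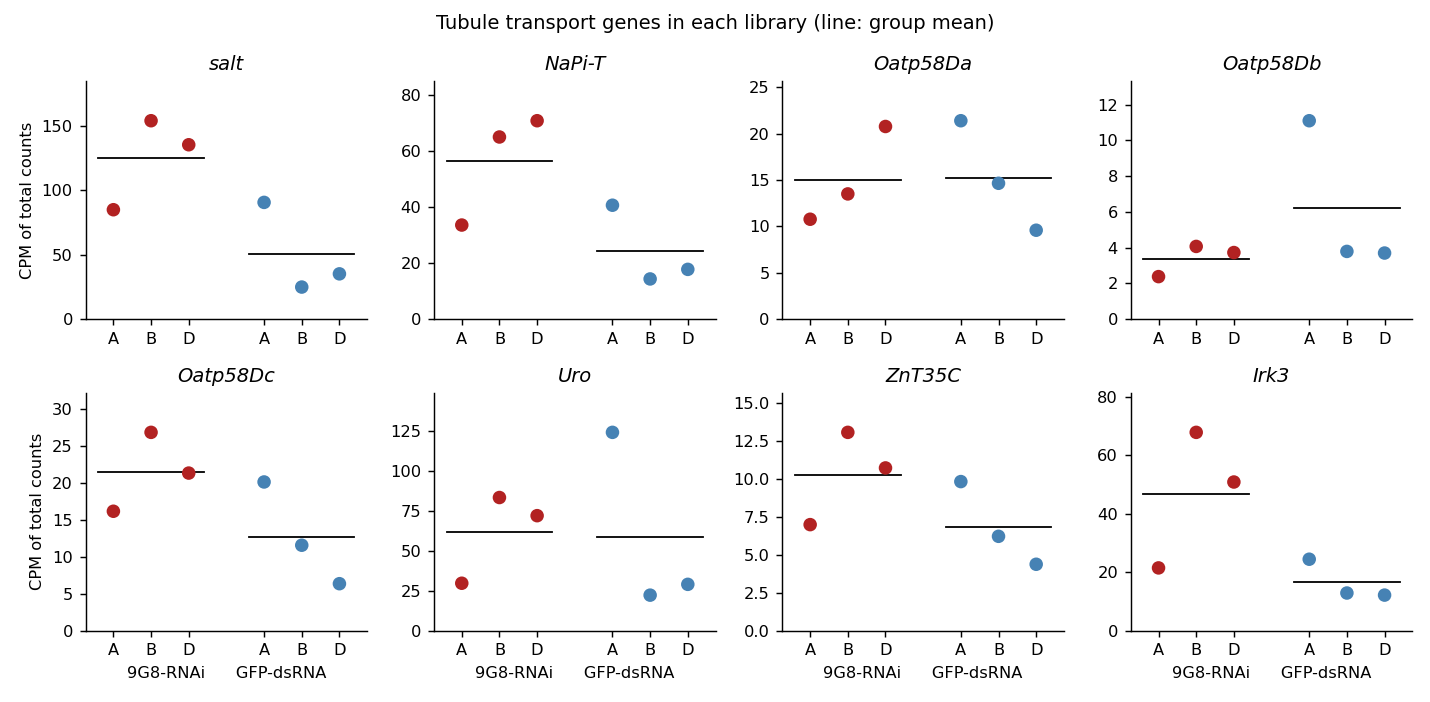
Level of each of the 8 genes in CPM of total counts (vertical axes, from 0) of 9G8-RNAi (red) and GFP-dsRNA (blue), with the group mean as a black line. On this scale GFP-dsRNA replicate A lies above the other controls for all 8 genes (3 of 8 when scaled by TMM), and for Uro, at 124 CPM, above every other library. The share of all tested genes that are highest in that control was not counted.

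Irk3 (FBgn0032706, 2L from 18711071 to 18713748, minus strand) encodes an inward rectifier potassium channel of the tubule. It had the largest difference among the 8, with 21.5, 67.8 and 50.8 CPM of total counts in 9G8-RNAi and 24.4, 12.9 and 12.2 CPM in GFP-dsRNA. 9G8-RNAi replicate A was below GFP-dsRNA replicate A on this scale. Scaled by TMM the means were 49.6 ± 27.9 and 15.1 ± 3.80 CPM (SD, n = 3 each), with a log2 fold change of 1.71 ± 0.46 (SE). Its exons share 227 bases with Grip71 on the other strand, a gene with 138 reads in all libraries together.

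The zinc transporter gene ZnT35C (FBgn0028516, 2L from 15228728 to 15247714, minus strand) moves zinc into the storage granules of tubule cells. It was read at a low level, with 7.0, 13.1 and 10.7 CPM of total counts in 9G8-RNAi and 9.84, 6.23 and 4.39 CPM in GFP-dsRNA. The groups overlapped through GFP-dsRNA replicate A. The TMM-scaled means were 10.9 ± 3.93 against 6.13 ± 0.68 CPM (SD, n = 3 each), and the log2 fold change was 0.84 ± 0.32 (SE).

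Uro (FBgn0003961, 2L from 7780085 to 7781415, plus strand) encodes urate oxidase, the enzyme that breaks down uric acid in principal cells and a defining gene of the adult tubule. It measured 29.7, 83.4 and 72.0 CPM of total counts in 9G8-RNAi and 124, 22.3 and 29.1 CPM in GFP-dsRNA. The highest value on this scale lay in a control, GFP-dsRNA replicate A, but scaled by TMM in 9G8-RNAi replicate B, at 98.4 against 73.9 CPM. In CPM of total counts GFP-dsRNA replicate A was 4.83 times the mean of the other 2 controls, the widest such gap among the 8 genes, and 2.24 times scaled by TMM. The log2 fold change of 0.48 ± 0.54 (SE) was smaller than its error, and the TMM-scaled means of 65.0 ± 31.9 and 46.6 ± 26.9 CPM (SD, n = 3 each) overlapped. Without GFP-dsRNA replicate A it was 0.94, and without 9G8-RNAi replicate B 0.06.

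Oatp58Da, Oatp58Db and Oatp58Dc (FBgn0050277, FBgn0034715 and FBgn0034716) encode organic anion transporting polypeptides, a family that carries bulky organic anions across membranes. They lie side by side on the minus strand of 2R, from 22218456 to 22228574, with 274 bases between the first and the second gene and 181 between the second and the third. As related neighbours they may share reads, so each count is uncertain to that extent. Their differences between the groups did not have the same sign.

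Oatp58Dc measured 16.1, 26.8 and 21.3 CPM of total counts in 9G8-RNAi and 20.1, 11.6 and 6.36 CPM in GFP-dsRNA. Scaled by TMM these became 22.9 ± 7.54 and 10.8 ± 1.03 CPM (SD, n = 3 each), a log2 fold change of 1.08 ± 0.31 (SE). Oatp58Da was read at 10.8, 13.5 and 20.8 CPM against 21.4, 14.7 and 9.59 CPM, and the groups overlapped. Its log2 fold change of 0.18 ± 0.27 (SE) turned to -0.02 with total counts only. Oatp58Db was the lowest of the 8 and measured 2.38, 4.07 and 3.73 CPM against 11.1, 3.79 and 3.70 CPM. It was the single member with a lower TMM-scaled mean in 9G8-RNAi, by a log2 fold change of -0.55 ± 0.35 (SE), with TMM-scaled means of 3.59 ± 1.07 and 5.28 ± 1.66 CPM (SD, n = 3 each). In CPM of total counts its high value lay in GFP-dsRNA replicate A, and the other 5 libraries lay between 2.38 and 4.07 CPM, but scaled by TMM replicate D, at 5.82 CPM, came close to replicate A at 6.61 CPM.

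Across the 8 genes the log2 fold change ran from -0.55 to 1.71 with a median of 0.96, and 7 of 8 were above 0. Over all 9285 tested genes the median was -0.07, and 44.3% were above 0. In the edgeR quasi-likelihood test with Benjamini-Hochberg adjustment, 0 of 8 members passed a threshold of 0.05, where 0.118% of the tested genes did (8 higher, 3 lower). At an unadjusted p under 0.05 there were 421 genes, and DESeq2 called 104 genes with 0 of the 8 members among them. Since the members were chosen with this contrast known, nothing is read from these counts.

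**Figure D2:**
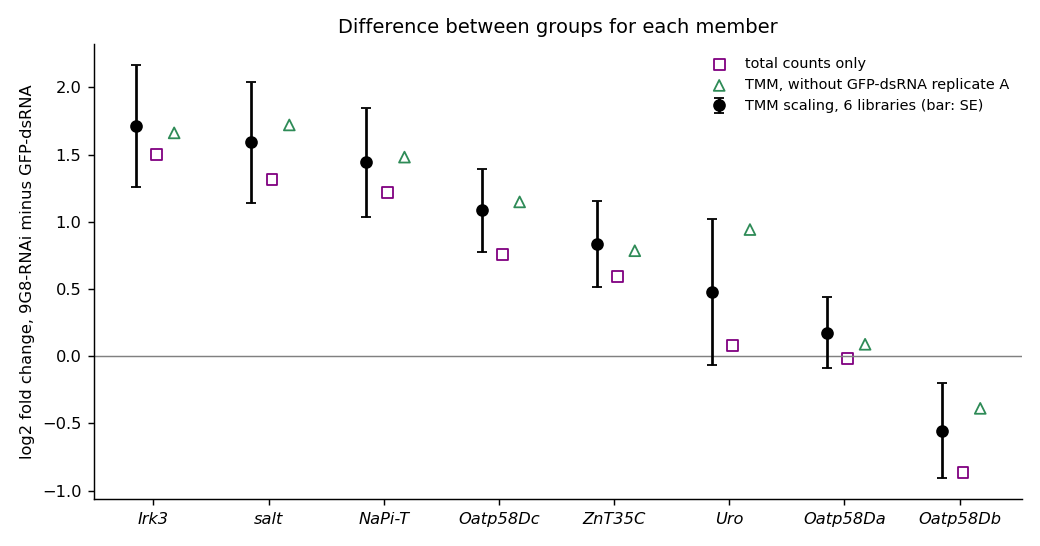
Log2 fold change, 9G8-RNAi minus GFP-dsRNA (vertical axis), of each member with TMM scaling (black, bars are SE), with total counts only (squares) and with TMM but without GFP-dsRNA replicate A (triangles). The members run from Irk3 at 1.71 to Oatp58Db at -0.55, and Oatp58Da crosses 0 with total counts only.

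Whether the groups overlapped hung on the scaling. In TMM-scaled CPM the 3 libraries of 9G8-RNAi lay above the 3 controls for 5 of 8 members, salt, NaPi-T, Oatp58Dc, ZnT35C and Irk3, where 4.81% of tested genes did so. In CPM of total counts this held for 0 of 8 members, against 2.5% of tested genes. The TMM factor of GFP-dsRNA replicate A was 1.68, the highest of the 6 (the others lay between 0.635 and 1.17), and it lowers every value of that library. Without that library the count in CPM of total counts was 6 of 8, Uro being the sixth, but 16.9% of tested genes then lay higher with 3 libraries against 2. With total counts only the median of all tested genes shifted to -0.33. Relative to the median of all genes, that of the 8 members was 1.03 with TMM and 1.0 with total counts only.

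The 8 genes together took 206, 428 and 386 CPM of total counts in 9G8-RNAi and 342, 111 and 118 CPM in GFP-dsRNA. On this scale 9G8-RNAi replicates B and D and GFP-dsRNA replicate A were thus high, 9G8-RNAi replicate A was intermediate, and GFP-dsRNA replicates B and D were low. The group means of this sum were 340 ± 118 against 190.5 ± 132 CPM (SD, n = 3 each), which overlap. Scaled by TMM the sums were 241, 505 and 331 against 204, 99.9 and 186 CPM, with means of 359 ± 134 and 163 ± 55.6 CPM (SD, n = 3 each). On that scale the groups did not overlap, and GFP-dsRNA replicate A lay below every 9G8-RNAi library and near replicate D of the controls. In CPM of total counts GFP-dsRNA replicate A was the highest control for 8 of 8 members, at 1.77 times (Oatp58Da) to 4.83 times (Uro) the mean of replicates B and D. Scaled by TMM it was the highest control for 3 of 8, Oatp58Db, Oatp58Dc and Uro, and its ratio to that mean was 0.90 for Oatp58Da, 1.39 for salt and 2.24 for Uro. In 9G8-RNAi, replicate A lay below the mean of B and D for each member, from 0.362 times for Irk3 to 0.671 times for Oatp58Dc in CPM of total counts, and from 0.407 times for Irk3 to 0.758 times for Oatp58Dc scaled by TMM. The TMM factors of the controls were 1.68, 1.108 and 0.635 for A, B and D. How many of all tested genes were highest among the controls in replicate A was not counted. The same holds for genes lower in 9G8-RNAi replicate A than the mean of B and D. Neither order is therefore read as a trait of the members.

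The make-up of the summed reads of the 8 genes does not depend on the scaling of libraries, and it is described here without a test. Oatp58Db contributed 1.15%, 0.95% and 0.97% of the reads of the 8 genes in 9G8-RNAi and 3.24%, 3.42% and 3.13% in GFP-dsRNA. The share of salt was 41.2%, 36.0% and 35.1% against 26.5%, 22.5% and 29.8%. Neither share overlapped between the groups, nor did those of NaPi-T (higher in 9G8-RNAi), Oatp58Da and Uro (both lower). The shares of Oatp58Dc, ZnT35C and Irk3 overlapped. Shares of 1 sum depend on each other, so that a higher share of salt lowers the rest. They come from the same reads on which the members were chosen, so nothing is read from their separation.

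Ratios of single genes, which use the same reads, were picked out after their values were seen. The ratio of salt to Oatp58Db was 35.7, 37.9 and 36.4 in 9G8-RNAi and 8.17, 6.58 and 9.52 in GFP-dsRNA. Within each group it varied little, with 36.7 ± 1.11 against 8.09 ± 1.47 (SD, n = 3 each). The ratio of NaPi-T to Oatp58Db was 14.1, 16.01 and 19.0 against 3.67, 3.79 and 4.81. For Oatp58Dc over its direct neighbour Oatp58Db the ratios were 6.79, 6.59 and 5.72 against 1.81, 3.05 and 1.72. Salt over Uro was 2.86, 1.85 and 1.88 against 0.731, 1.12 and 1.21.

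Other ratios overlapped between the groups, such as salt to Irk3, which ranged from 2.27 to 3.96 in 9G8-RNAi and from 1.93 to 3.71 in the controls. The ratio of Oatp58Dc to ZnT35C lay between 1.45 and 2.31 in the 6 libraries. Of the 7 other members, 4 had a ratio of salt to that member that was higher in every 9G8-RNAi library, namely Oatp58Db, Oatp58Da, Uro and ZnT35C. Over all other tested genes 69.7% had such a ratio to salt.

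**Figure D3:**
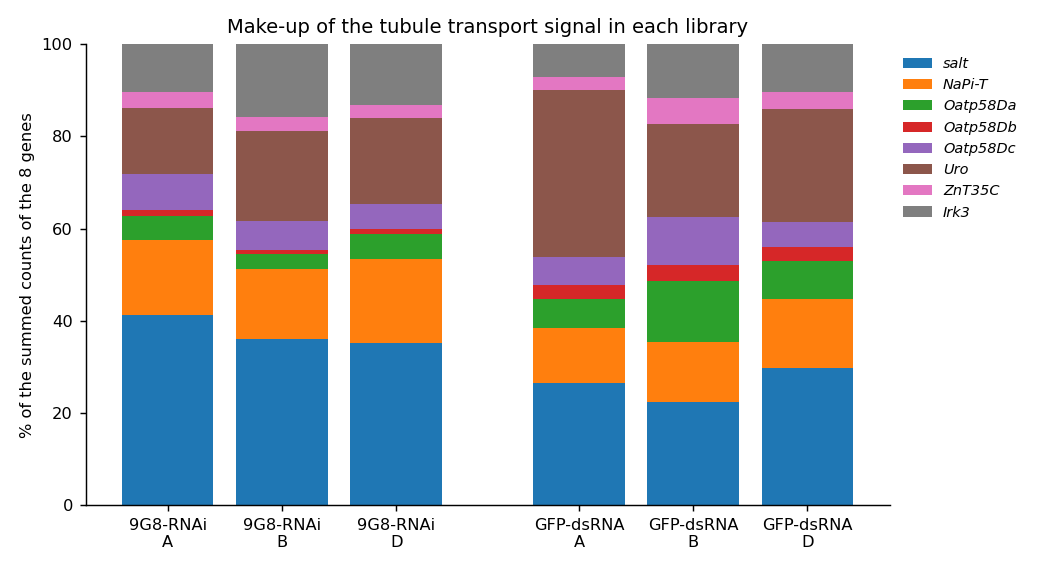
Share of each gene, in % of the summed reads of the 8 genes (vertical axis), in each library. The share of Oatp58Db is 0.95% to 1.15% in the 9G8-RNAi libraries and 3.13% to 3.42% in the GFP-dsRNA libraries, and that of salt is highest in 9G8-RNAi replicate A at 41.2%.

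The members followed each other to unlike degrees. Over the 6 libraries, Pearson's r of log2 CPM, scaled by TMM, was 0.873 to 0.986 for the 10 pairs among salt, NaPi-T, Oatp58Dc, ZnT35C and Irk3. These 5 are the members whose groups did not overlap with TMM, so that the group difference itself raises their r. Pairs of Uro or Oatp58Da with these 5 ran from 0.406 to 0.756. For the 7 pairs with Oatp58Db r ran from -0.268 to 0.517. In CPM of total counts the range was 0.856 to 0.985 among the 5 genes. It was 0.411 to 0.814 for Uro or Oatp58Da with them, and 0.058 to 0.711 for Oatp58Db, so that the ranges lay closer there. Against the mean of the other 7 members r on the TMM scale was 0.787 for Uro, 0.605 for Oatp58Da and -0.034 for Oatp58Db. These values share 6 libraries and their scaling, and they describe likeness without a test.

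Markers of other cells were set beside the members. Of 10 further genes used in principal cells, 10 were tested and 0 passed in the edgeR fit, with 5 above 0 and a median log2 fold change of -0.02. Their sum was 601 to 966 CPM of total counts in 9G8-RNAi and 725 to 772 CPM in GFP-dsRNA libraries, and 0 of the 10 were at 0 in all libraries. Some of these genes followed the members. Smvt, of the family of sodium-dependent vitamin transporters, measured 58.9, 109 and 92.0 CPM of total counts in 9G8-RNAi and 89.0, 36.5 and 38.1 CPM in GFP-dsRNA. Like salt it was the highest of the controls in GFP-dsRNA replicate A in CPM of total counts, and in replicate D scaled by TMM, with 52.9, 33.0 and 60.0 CPM for Smvt and 54.0, 22.5 and 55.4 CPM for salt in the controls. kumpel, an SLC5 relative of salt, measured 76.3, 166 and 152 against 100.4, 34.1 and 42.7 CPM. ct had the largest log2 fold change of the list, at 1.43 ± 0.46 (SE; edgeR adjusted p = 0.81). It measured 4.04, 12.0 and 9.89 against 4.96, 5.37 and 1.47 CPM of total counts, so that the groups overlapped. CapaR, the receptor for the diuretic Capa peptides, was read at 1.10 to 4.77 CPM of total counts, with a log2 fold change of 0.36 ± 0.42 (SE). Others did not, such as Eglp2, which was lowest in GFP-dsRNA replicate A at 110 CPM and highest in GFP-dsRNA replicate D at 310 CPM. Dh31-R, Dh44-R2, Prestin, Irk1 and Eglp4 had log2 fold changes between -0.25 (Dh44-R2) and 0.01 (Eglp4).

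Stellate cell markers were present at low levels. Their summed level was 69.6 to 111 CPM of total counts in 9G8-RNAi and 52.4 to 161 CPM in GFP-dsRNA libraries, with 6 of 7 tested and 0 past the threshold. SecCl, a chloride channel subunit, measured 4.28, 9.04 and 10.2 CPM against 10.8, 2.67 and 4.23 CPM, and Lkr, the receptor for the diuretic peptide leucokinin, 0.476, 1.63 and 1.70 against 2.40, 0.337 and 0.564 CPM. Both were higher, in CPM of total counts, in GFP-dsRNA replicate A than in the other 2 controls, as salt was, but scaled by TMM SecCl was at 6.43 CPM there and at 6.66 CPM in replicate D. The more abundant ClC-a, a chloride channel, was also the highest of the controls in replicate A, with 60.0, 36.2 and 17.7 CPM of total counts. So was Drip, a water channel, with 75.2, 36.8 and 23.1 CPM. Between the groups the log2 fold change was -0.28 ± 0.27 for ClC-a and -0.01 ± 0.27 for Drip (SE). TyrR, a tyramine receptor, was at 15.6 CPM of total counts in GFP-dsRNA replicate B and at 7.36 CPM in replicate A. The transcription factor gene tio was close to 0, at 0.316 CPM or less.

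The sums of hindgut and muscle markers were highest in 1 library. The 5 hindgut markers summed to 266 CPM of total counts in GFP-dsRNA replicate A, to 38.5 and 19.2 CPM in replicates B and D, and to 38.9 to 61.5 CPM in 9G8-RNAi libraries. The 9 muscle markers summed to 5832 CPM in that library and to 167 to 434 CPM in the others. The hindgut markers drm and bowl stood out little there, at 30.9 and 21.1 CPM against 25.5 and 16.4 CPM in 9G8-RNAi replicate D. Scaled by TMM drm was highest in 9G8-RNAi replicate D, at 21.8 against 18.4 CPM in GFP-dsRNA replicate A. On that scale bowl was highest in 9G8-RNAi replicate A, at 17.5 against 12.5 CPM. Fat body markers summed to 628 CPM in GFP-dsRNA replicate A, 116 and 142 CPM in replicates B and D, and 136 to 506 CPM in 9G8-RNAi, but scaled by TMM they were highest in 9G8-RNAi replicate A, at 593 against 374 CPM. In each of these 3 lists 0 genes passed the edgeR test, and byn was at 0.345 CPM or more in every library. 9G8-RNAi replicates B and D, with 428 and 386 CPM of the members, had 41.1 and 61.5 CPM of hindgut and 181 and 289 CPM of muscle markers. Copper and iron cell markers (9 tested) and progenitor and enteroendocrine markers (8 tested) also had 0 genes past the threshold. The part that tissue carried over with the gut has in the members' values was not tested.

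**Figure D4:**
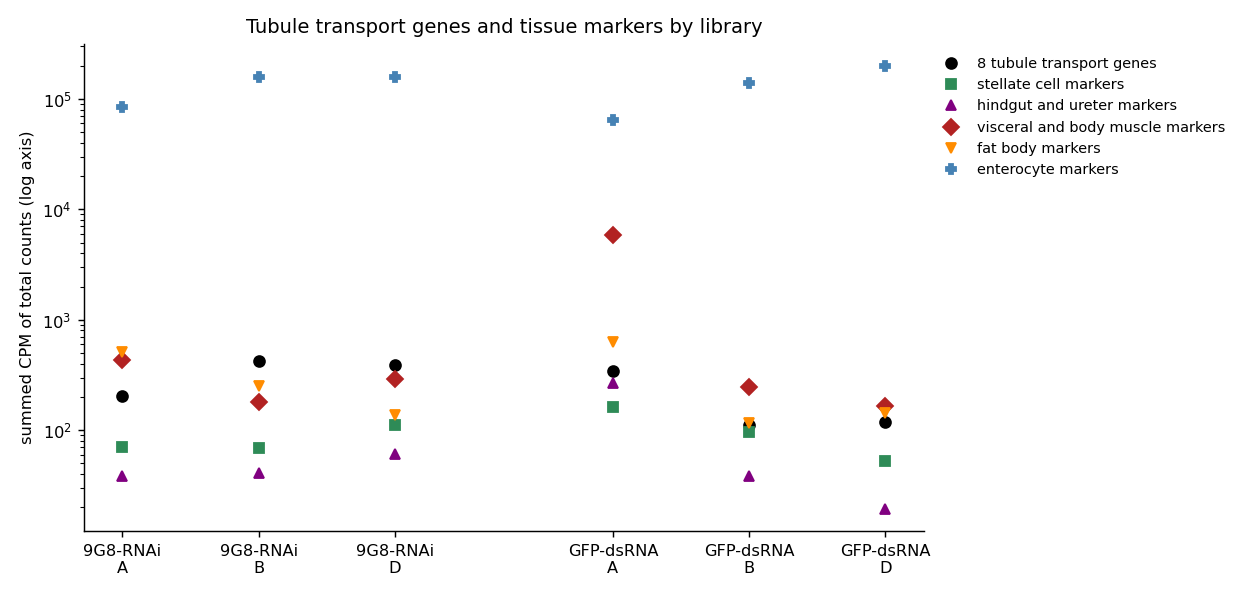
Summed CPM of total counts (vertical log axis) of the 8 tubule transport genes and of 5 lists of tissue markers in each library. Muscle markers reach 5832 CPM in GFP-dsRNA replicate A, while the 8 genes are highest in 9G8-RNAi replicate B at 428 CPM.

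Relatives of the members were examined in the same fit. Among 5 other genes of the OATP family 4 were tested and 0 passed, with a median log2 fold change of -0.11. Oatp33Ea and Oatp33Eb were the highest of them, at 30.7 and 24.5 CPM per kilobase over the 6 libraries against 2.29 to 7.0 for the 3 genes at 58D. Oatp33Ea measured 86.6, 46.1 and 111 CPM of total counts in 9G8-RNAi and 127, 116 and 70.7 CPM in GFP-dsRNA, with its lowest value in the library where salt was highest.

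Of the other inward rectifier genes, Irk1 stood at 17.3 CPM per kilobase, near Irk3 at 15.1. The log2 fold change of Irk1 was -0.14 ± 0.43 (SE; adjusted p = 0.96 in edgeR). Irk2 measured 385 CPM of total counts in GFP-dsRNA replicate A and at most 39.2 CPM elsewhere, so that 1 library set its group mean. Among 6 other ZnT zinc transporters 5 were tested and 0 passed, with 2 above 0 and a median of -0.10. ZnT41F and ZnT63C, at 20.1 and 19.2 CPM per kilobase, were read at higher levels than ZnT35C at 4.0, and their log2 fold changes were 0.01 ± 0.28 and 0.07 ± 0.33 (SE). Whether any of these relatives differs from its member in the contrast was not tested.

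**Figure D5:**
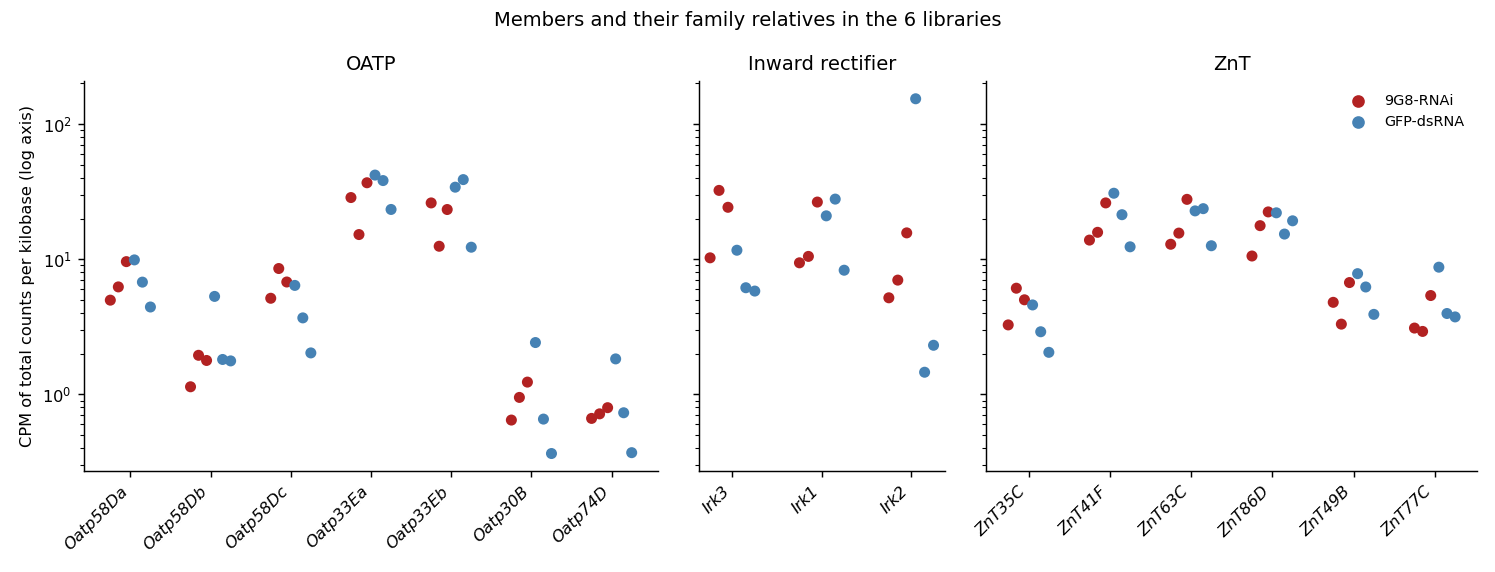
Level in CPM of total counts per kilobase (vertical log axis) of OATP, inward rectifier and ZnT genes in 9G8-RNAi (red) and GFP-dsRNA (blue) libraries, 1 point per library in the order A, B, D. Oatp33Ea and Oatp33Eb, with means of 30.7 and 24.5, lie above the genes at 58D, and Irk2 has a single high point in GFP-dsRNA replicate A.

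Other genes of tubule function gave no calls. Of 7 SLC5 relatives of salt found, 4 were tested and 0 passed, and kumpel had the largest log2 fold change at 1.40 ± 0.44 (SE; adjusted p = 0.79 in edgeR). Among 17 SLC17 relatives of NaPi-T, 13 were tested, 9 were above 0, the median was 0.16 and 0 passed. dmGlut and Picot led in level at 224 and 73.5 CPM per kilobase, with log2 fold changes of -0.08 ± 0.53 and 0.03 ± 0.33 (SE). For the enzymes around uric acid and the molybdenum cofactor that xanthine dehydrogenase needs, 7 of 10 genes were tested, 0 passed and the median was 0.01. CG30016 and AOX1 led in level at 115.6 and 49.5 CPM per kilobase, with log2 fold changes of 0.92 ± 0.54 and -0.53 ± 0.43 (SE). ry, the xanthine dehydrogenase that makes the substrate of urate oxidase, measured 8.02, 5.02 and 12.6 CPM of total counts in 9G8-RNAi and 9.35, 17.0 and 3.23 CPM in GFP-dsRNA, an order unlike that of Uro.

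The proton pump that drives tubule secretion also works in the acid-secreting copper cells and in other gut cells. Of 32 V-ATPase genes 22 were tested, 13 were above 0, the median log2 fold change was 0.05 and 0 passed. Their sum was 12246, 13359 and 15671 CPM of total counts in 9G8-RNAi and 18606, 13893 and 9719 CPM in GFP-dsRNA. Scaled by TMM the sum was 14332, 15763 and 13427 against 11076, 12535 and 15295 CPM, so that the order of the libraries hung on the scaling and GFP-dsRNA replicate A went from the highest to the lowest. For organic solute and ABC transporters (17 tested, median -0.003), ion cotransporters, exchangers and water channels (23 of 25, median -0.12) and tubule hormone receptors (8 of 9, median -0.17), 0 passed. Among them the organic cation transporter relative CG17752 measured 17.3, 45.9 and 35.3 against 92.2, 10.99 and 14.1 CPM of total counts. On that scale it was highest in GFP-dsRNA replicate A, but scaled by TMM it was at 54.9 CPM there and at 54.2 CPM in 9G8-RNAi replicate B. NKCC, a sodium, potassium and chloride cotransporter, reached 607 CPM of total counts in GFP-dsRNA replicate A and at most 10.8 CPM elsewhere.

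The genes most like the members were ranked by Pearson's r, over the 6 libraries, with the mean of the 8 members, both as log2 CPM scaled by TMM. Among 5482 genes with a mean of at least 5 CPM, 60 had an r over 0.9 and the median r was -0.03. The first 10 were Kua, CG31272, Smvt, kumpel, CG31454, CG10514, CG17636, GlcAT-I, CG11007 and Rheb, with r from 0.991 down to 0.968. Their r in CPM of total counts ran from 0.989 for Smvt to 0.803 for Rheb, and 5 of the 10 were still among the first 10. The median r over the compared genes was then 0.34, and 87 had an r over 0.9. Smvt lies 4698 bases from salt on 3R, on the same strand. The ratio of salt to Smvt was 1.44, 1.41 and 1.47 in 9G8-RNAi and 1.02, 0.682 and 0.923 in GFP-dsRNA. Both kumpel and Smvt belong, like salt, to the SLC5 family. CG31272 was read at 9.79, 23.8 and 21.7 CPM of total counts against 19.99, 7.26 and 7.90 CPM, and Rheb, a small GTPase of TOR signalling, at 39.9, 45.3 and 57.6 against 69.7, 41.4 and 28.2 CPM.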

How the data were processed

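The authors deposited raw read counts for each gene in 1 file per library, together with the summed exon length of each gene per the file headers. The tools named are featureCounts (Subread 1.5.2), STAR 2.5.2b and Trimmomatic 0.36, with the build BDGP6, per the submitters' processing notes. Strand and multi-mapping settings: not given in the sources used here. Symbols came from Ensembl release 115 (17137 identifiers matched, 215 named by position with 80% reciprocal overlap, 59 unnamed).

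Counts were fitted in edgeR 4.0.16 (R 4.3.3) with filterByExpr, TMM and the robust quasi-likelihood test over 9285 genes. The SE is the log2 fold change divided by the root of F. The procedure was tested on simulated counts, where it recovered the sizes set but did not call the smallest changes. Tables and plots used Python 3.11.15. A floor of 3 counts corresponds to 0.045 to 0.114 CPM, for counting error only. Library pairs differed beyond sampling noise (chi-square per degree of freedom at least 245.6). Labels do not state separate cohorts, so a p-value here reflects only how these samples vary, which may be technical.

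Members and lists were chosen with earlier results of these data known. Named are the members, the 10 genes most like them and up to 3 genes per list. Those list genes were taken by adjusted p if past the threshold, otherwise by level. Other list genes and Cyp6a17 were chosen after their values were seen. Alternatives were RLE, total counts, library sizes without the 20 largest genes, other low-count filters, DESeq2 1.42.0, a replicate block by letter, and omission of each library. The non-overlap counts without TMM and without GFP-dsRNA replicate A were added after seeing the data.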

Additional observations from a re-analysis of the deposited data

How the results depend on the processing

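Direction was kept for 7 of 8 members under every alternative scaling, filter, tool, block or left-out library, and Oatp58Da went from 0.18 to -0.02 with total counts only. The members' median without single libraries stayed between 0.65 (without 9G8-RNAi replicate B) and 1.11 (without 9G8-RNAi replicate A), against 0.96. Genes past the threshold numbered 11, but 17 with total counts only, 50 with no low-count filter and 104 with DESeq2, and 0 to 11 without single libraries (0 without 9G8-RNAi replicate B, 2 without A or D, 5 and 4 without GFP-dsRNA replicates B and D). In the fit without 9G8-RNAi replicate B, 253 genes had an unadjusted p under 0.05. Members higher without overlap numbered 5 with TMM, 0 in CPM of total counts and 6 there without GFP-dsRNA replicate A. The cause of these shifts was not tested. With the replicate block 0 genes passed in edgeR (217 at an unadjusted p under 0.05), against 11 in edgeR without it (421 at an unadjusted p under 0.05). No pairing by letter was seen, as deviations of same-letter libraries correlated at -0.02, -0.35 and -0.46 for A, B and D. No library matched its own letter best. With 3 libraries per group these correlations cannot exclude a batch shared by letter. Each member had 70 reads or more in each library, with the fewest for Oatp58Db at 70 to 291. The effect of depth on the members was not tested.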

Other observations

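The SLC17 relatives CG12490 and MFS9 of NaPi-T had the same sign of difference as NaPi-T, and were chosen after their values were seen. CG12490 measured 6.73, 11.9 and 16.02 CPM of total counts in 9G8-RNAi and 2.94, 3.71 and 2.60 CPM in GFP-dsRNA replicates A, B and D, so that the groups did not overlap, with a log2 fold change of 1.96 ± 0.40 (SE) and an edgeR adjusted p of 0.22. MFS9 measured 5.27, 4.77 and 12.3 against 4.16, 2.06 and 2.54 CPM, with 1.43 ± 0.39 (SE) and 0.50. The pigment and metabolite transporter gene st measured 5.85, 10.7 and 9.0 against 6.52, 4.42 and 2.98 CPM, with a log2 fold change of 1.12 ± 0.31 (SE; edgeR adjusted p = 0.55).

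NaPi-T lies 28078 bases from Cyp6a17 on 2R, a cytochrome P450 gene with the opposite difference, and 9 genes lie between them. Cyp6a17 fell to 1.73 ± 0.26 CPM scaled by TMM in 9G8-RNAi from 11.4 ± 3.53 CPM in GFP-dsRNA (SD, n = 3 each), with a log2 fold change of -2.71 ± 0.34 (SE) and an edgeR adjusted p of 0.038. The direction held under all 13 alternatives, but the gene passed the threshold in only 6 of them. The edgeR adjusted p was 0.062 with total counts only, 0.27 with the replicate block, 0.25, 0.34 and 0.14 when replicate A, B or D of 9G8-RNAi was left out, and 0.061 and 0.073 without GFP-dsRNA replicates A and D. Whether the difference of NaPi-T is tied to this stretch was not tested.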
